A study of Homo sapiens with 6 samples.

Results

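The genes described here are 30 genes of cholesterol and fatty acid synthesis, taken by symbol from a table of 29476 genes measured in A549 cells. They were chosen as enzymes and regulators under the control of the sterol regulatory element-binding proteins (SREBPs), and all 30 were found and passed the filter on low counts. They comprise 18 sterol enzymes (7 of the mevalonate steps and 11 from farnesyl diphosphate to cholesterol), 7 fatty acid enzymes and 5 regulators or transport proteins. A549 is a human lung adenocarcinoma cell line. Cells grown in RPMI-1640 were transfected by lipid reagent with a negative control siRNA (si-NC, 3 libraries) or an siRNA that targets NORAD, a long noncoding RNA (si-NORAD, 3 libraries), each numbered 4, 5 and 6 in the labels, the order in which values of 3 libraries are given. RNA was depleted of ribosomal RNA before sequencing. The sources used here give neither the time after transfection nor the siRNA sequences, and no untransfected cells are among the groups. The labels do not say whether libraries came from separate cultures, so p-values rest on a spread among libraries that may be technical.

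Cells make cholesterol from acetyl-CoA through mevalonate and squalene, and make fatty acids from the same precursor through malonyl-CoA. SREBP proteins are held in the endoplasmic reticulum with the escort protein SCAP by INSIG proteins when sterols are plentiful. When sterols are scarce they move to the Golgi, are cut, and enter the nucleus, where SREBP2 acts mainly on sterol genes and SREBP1 mainly on fatty acid genes. Lung adenocarcinoma cells use both branches for membrane growth, and alveolar type 2 cells, the presumed cell of origin, use them for surfactant lipids.

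Total counts ran from 19332334 to 32760606 per library, at which 1 count is 0.0300 to 0.0507 CPM (count scaled to library size by TMM). The targeted RNA, NORAD, was at 550, 461 and 423 CPM in si-NC 4, 5 and 6, against 359, 372 and 400 CPM for si-NORAD. Every si-NORAD library lay below every si-NC library, but with all 6 libraries the difference did not pass the test over all genes (log2 fold change -0.34, edgeR adjusted p = 0.196). Against si-NC 4 alone, a single control library, the log2 fold change of NORAD was -0.55. In edgeR NORAD fell against si-NC 5 and 6 (-0.23, adjusted p = 0.00757), where 39.3% of all genes were called. It also fell without the low-count filter (-0.35, adjusted p = 0.0109), where 6.56% were called. NORAD did not pass in DESeq2 (adjusted p = 0.0677) or in edgeR with the trend over gene length removed (adjusted p = 0.1295). Nor did it pass in any other fit tried here. Among the controls, the mean of si-NC 5 and 6 minus si-NC 4 was -0.32 (log2 CPM), larger in size than the -0.23. The labels of this cell line carry an extraction protocol that mentions retinas. The photoreceptor genes SAG, CRX and RCVRN had at most 2 counts in any library, PDE6A had 30 to 83 and NRL 13 to 28. Mean levels of PDE6A and NRL were 0.3247 and 0.3089 FPKM. Among the 6 A549 epithelial markers, ALDH1A1 (1624 FPKM), AKR1B10 (926.0), KRT8 (452.9) and KRT18 (401.1) were high by mean level. AKR1C1 (5.002 FPKM) and KRT19 (0.9571 FPKM) were far lower, and KRT19 had 38 to 74 counts per library, within the range of PDE6A. Summed FPKM per library was 3024 to 3972 over 6 A549 epithelial markers, 0 to 0.0944 over 4 blood markers and 1.31 to 1.93 over 4 fibroblast markers. The control libraries si-NC 5 and si-NC 6 stood apart. Of all genes tested, 28.0% had both of them above the other 4 libraries and 27.0% had both below. The fits against si-NC 4 alone and against si-NC 5 and 6 are therefore given beside the results that turn on the control used. That split was read from these same libraries, so a call in those fits is not by itself support for a change. With all 6 libraries edgeR called 1 gene, and without si-NC 4 it called 6251.

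With all 6 libraries, none of the 30 genes passed the edgeR quasi-likelihood test (p-values adjusted by Benjamini and Hochberg across the 15515 genes tested, from 0.198 for ACACA to 0.974 for INSIG1). The background was as low, with 1 gene of 15515 called (0.00645%). DESeq2 also called 0 of the 30 (382 of the 15515 genes, 2.46%), but gave no adjusted p for CYP51A1. At an unadjusted p under 0.05 there were 5 of the 30, against 21.6% of all genes. These were EBP, HSD17B7, FDFT1 and NSDHL with lower values in si-NORAD (12.1% of all genes) and ACACA with higher values (9.51%). Fitted values of the 2 branches pointed in opposite directions: 14 of the 18 sterol enzymes had lower values in si-NORAD (median log2 fold change -0.16), and 6 of the 7 fatty acid enzymes had higher values (median 0.16). The median over all genes tested was 0.01. In bulk RNA, fewer cells that express a gene and less of its RNA per cell cannot be told apart. By CPM, the groups did not overlap for 2 of the 30 genes (25.4% of all genes tested), ACACA with higher values (12.7%) and HSD17B7 with lower values (12.7%).

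The sizes of these differences depended on which control library was used. Against si-NC 5 and 6, without si-NC 4, edgeR called 14 of the 30 genes, but it also called 39.3% of all genes. In that fit 9 sterol enzymes fell (20.3% of all genes tested) and 5 fatty acid enzymes rose (19%). Against si-NC 4 alone, edgeR called 2 of the 30 (3.05% of all genes), PMVK and FADS2, both higher (1.53%). The spread in that fit comes from the si-NORAD libraries, and the lone control is assumed to vary like them. There 15 of the 18 sterol enzymes had higher values, and the branch medians were 0.05 for sterol and 0.02 for fatty acid enzymes. The control library si-NC 4 lay within the range of the 3 si-NORAD libraries for 16 of the 30 genes (40.6% of all genes tested).

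**Figure D1:**
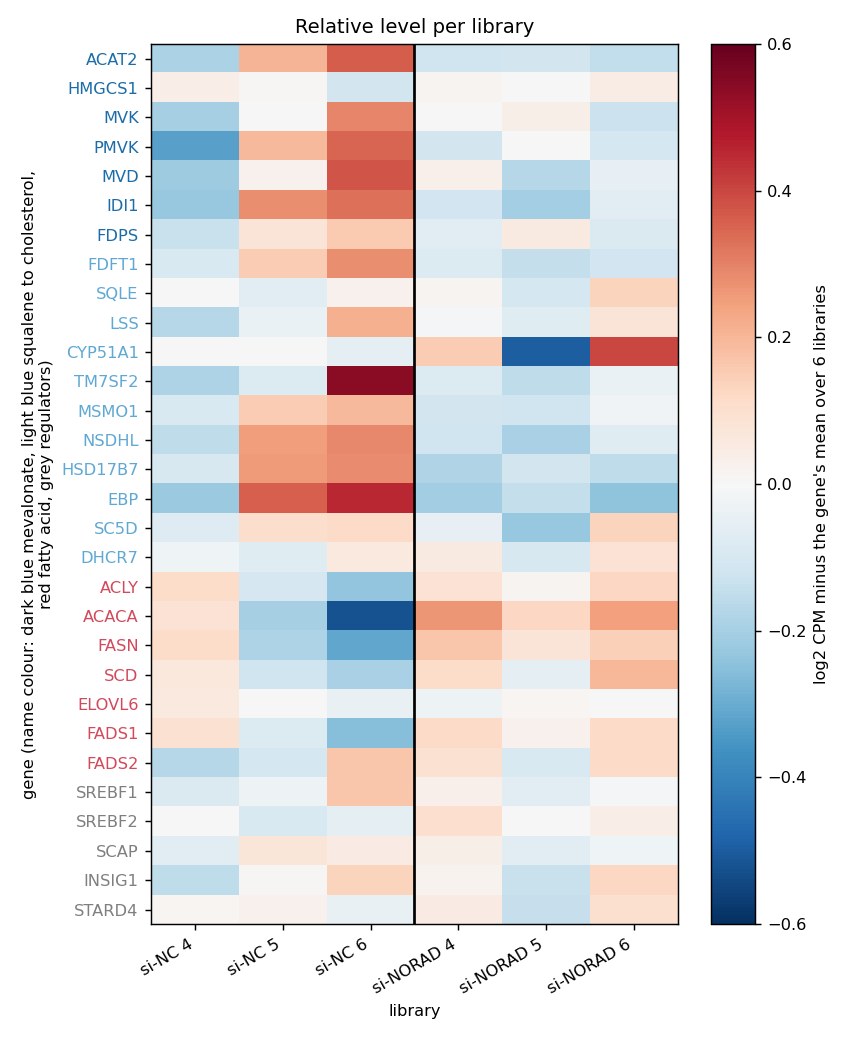
Each cell shows the log2 CPM of a gene in a library minus that gene's mean over the 6 libraries, with genes in rows by role and libraries in columns. The si-NC 5 and si-NC 6 columns are high for most sterol enzymes and low for ACLY, ACACA, FASN, SCD and FADS1, and the si-NC 4 column is closer to the si-NORAD columns.

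**Figure D2:**
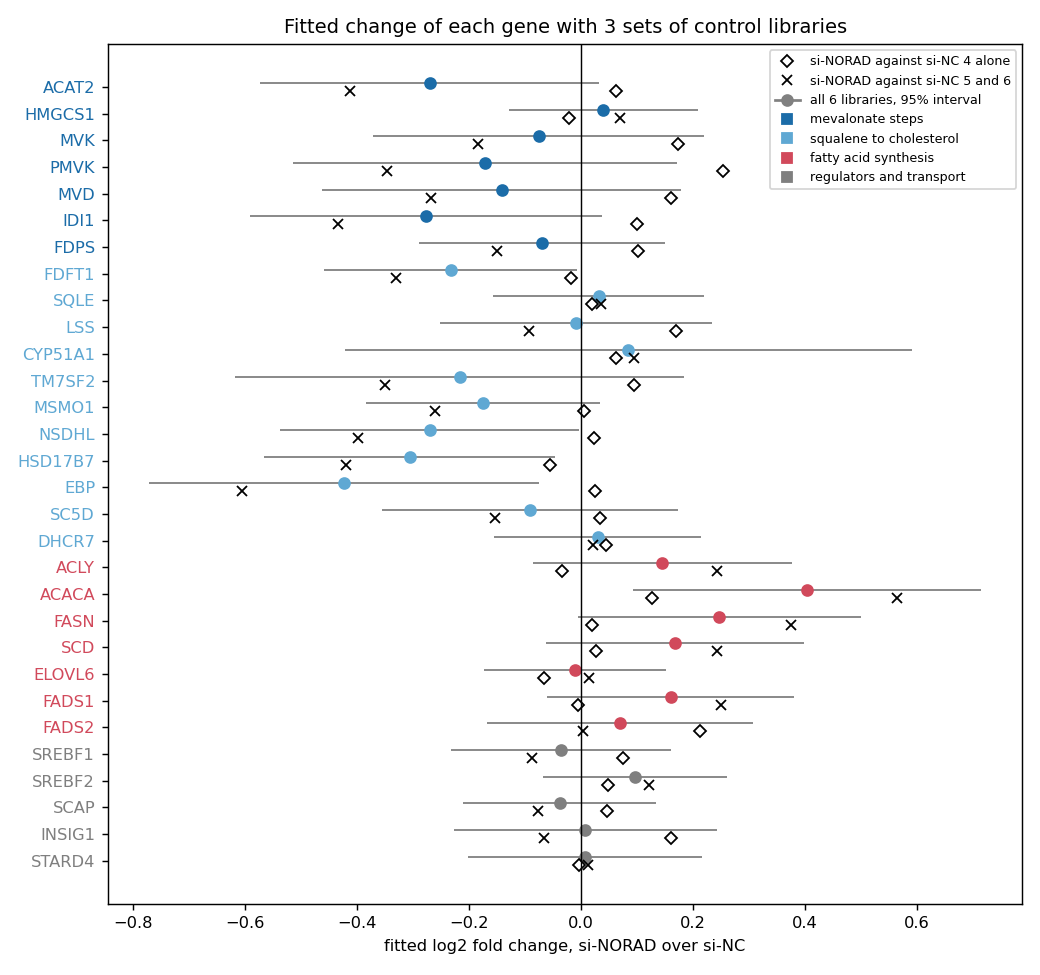
Circles show the fitted log2 fold change (si-NORAD over si-NC) of each gene with its 95% interval over all 6 libraries. Diamonds are the fit against si-NC 4 alone and crosses the fit against si-NC 5 and 6. Crosses lie left of 0 for most sterol enzymes and right of 0 for the fatty acid enzymes, and diamonds lie near 0 or right of it for most genes.

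The mean relative level of each branch (log2 CPM minus the gene's mean over 6 libraries, averaged over genes) shows the pattern per library. For the 18 sterol enzymes it was -0.13, 0.10 and 0.23 in si-NC 4, 5 and 6, against -0.05, -0.13 and -0.02 for si-NORAD. For the 7 fatty acid enzymes it was 0.05, -0.11 and -0.20 in si-NC, against 0.11, 0.01 and 0.13 for si-NORAD. The sterol value minus the fatty acid value was -0.18 in si-NC 4 and lay between -0.17 and -0.14 in the 3 si-NORAD libraries. In si-NC 5 and si-NC 6 it was 0.21 and 0.43. The control library si-NC 4 was thus beside the si-NORAD libraries, just below their range, and the other two controls were above them. These values get no p, since the genes were chosen with earlier results of these data known.

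**Figure D3:**
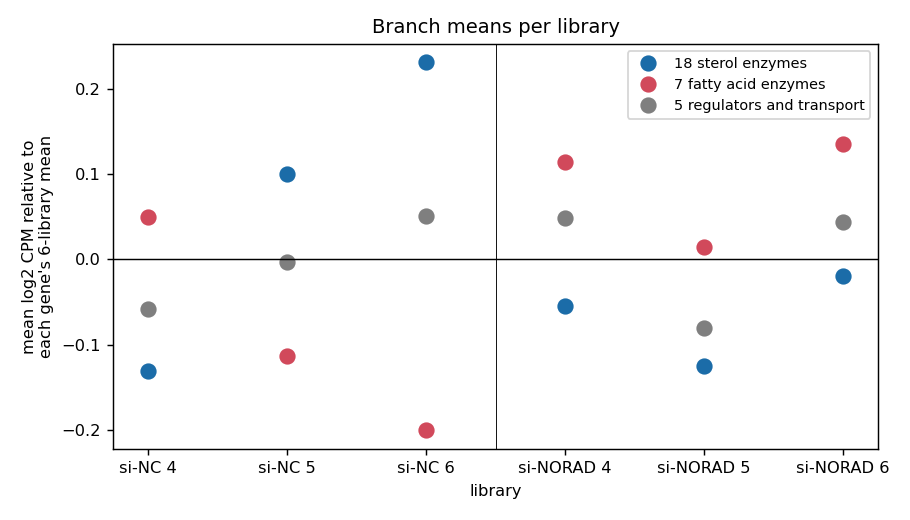
Points show, for each library, the mean over genes of the log2 CPM relative to each gene's mean over 6 libraries, for 18 sterol enzymes, 7 fatty acid enzymes and 5 regulators or transport genes. Sterol points lie above fatty acid points in si-NC 5 and si-NC 6 and below them in the other 4 libraries.

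Levels between genes were compared per length, as the FPKM (fragments per kilobase of gene, scaled to library size) deposited by the authors. ACLY, which makes cytosolic acetyl-CoA from citrate for both branches, had the highest level of the 30, with a mean of 124.7 FPKM (lowest 100.7, highest 137.9). SCD, the desaturase that makes oleate, followed with 90.7 FPKM (75.4 to 105.8), and FASN, the fatty acid synthase, with 50.4 FPKM (38.6 to 57.1). The ranges of these 3 over the 6 libraries overlapped only for ACLY and SCD. Among sterol enzymes PMVK (35.5 FPKM), HMGCS1 (33.6), EBP (27.8), MSMO1 (26.7) and SQLE (25.1) had the highest levels, and their ranges overlapped from each one to the next. At the low end, SC5D was at 2.85 and MVK at 2.72 FPKM, and CYP51A1 at 0.795 FPKM. In the GENCODE 29 annotation of GRCh38, 83.2% of the exon bases of CYP51A1 are shared with other genes, most of them (2844 of 3584 bases) with AC000120.2, a protein-coding gene on the same strand. ACAT2 shares 52.3% of its exon bases with genes on the opposite strand, SOD2 and TCP1 among them. FDPS has 8 named pseudogenes and shares 18.6% of its exon bases with overlapping genes. Whether reads were counted by strand, and how reads on 2 genes were treated, the sources used here do not say, so the levels of these 3 genes are uncertain.

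**Figure D4:**
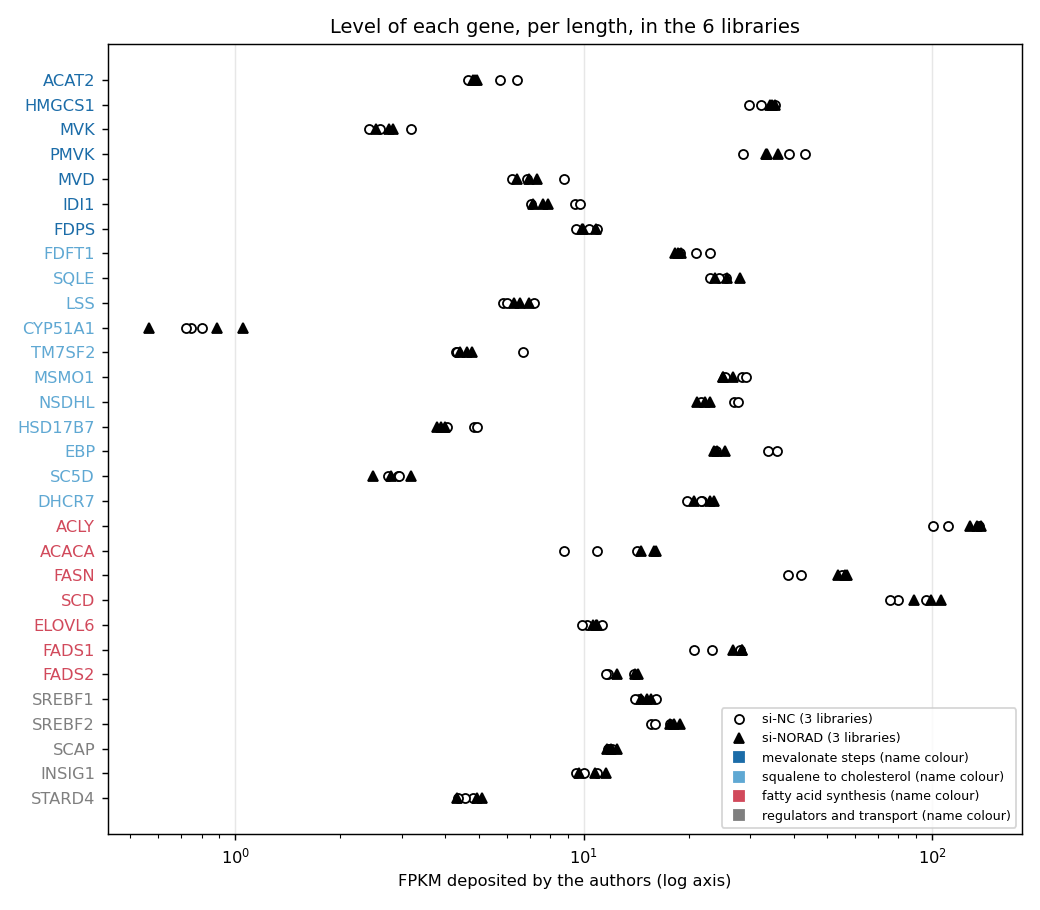
FPKM of each gene in the 3 si-NC libraries (open circles) and the 3 si-NORAD libraries (filled triangles) on a log axis, with gene names coloured by role. ACLY, SCD and FASN lie highest and CYP51A1 lowest, and differences between genes are far larger than those between libraries.

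Among the mevalonate steps, 6 of 7 genes had lower values in si-NORAD with all 6 libraries (median log2 fold change -0.14). IDI1, the isomerase that supplies dimethylallyl diphosphate, was at 30.04, 42.7 and 44.2 CPM in si-NC 4, 5 and 6, against 32.5, 30.5 and 33.5 CPM for si-NORAD. The lowest of its 6 values was a control, si-NC 4, so the groups overlapped. The fitted log2 fold change was -0.28 (SE 0.14, edgeR adjusted p = 0.271). ACAT2, the cytosolic thiolase that joins 2 acetyl-CoA units, was at 19.7, 25.8 and 28.9 CPM in si-NC, against 20.6, 20.8 and 20.2 CPM for si-NORAD, with si-NC 4 below all other libraries. Its log2 fold change was -0.27 (SE 0.13, adjusted p = 0.266).

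PMVK, which phosphorylates mevalonate phosphate, had the widest control range of these steps: 36.0, 51.7 and 57.5 CPM in si-NC 4, 5 and 6, around 41.8, 45.1 and 42.0 CPM in si-NORAD 4, 5 and 6. All si-NORAD libraries lay between si-NC 4 and the other controls. Its direction therefore changed with the control used. In edgeR the log2 fold change of PMVK was -0.35 without si-NC 4 (adjusted p = 0.00208) and 0.25 against si-NC 4 alone, a single control library. With all 6 libraries it did not pass (-0.17, SE 0.15, adjusted p = 0.506). MVD, which decarboxylates mevalonate diphosphate, was at 28.7, 33.9 and 43.3 CPM in si-NC and 34.1, 29.6 and 32.2 CPM in si-NORAD (log2 fold change -0.14, SE 0.14, edgeR adjusted p = 0.555). Without si-NC 4 IDI1 (-0.43, adjusted p = 0.000462), ACAT2 (-0.41, 0.00171) and MVD (-0.27, 0.0497) also fell, in a fit that called 39.3% of all genes. The values of MVK, mevalonate kinase, and FDPS, farnesyl diphosphate synthase, were smaller differences, with log2 fold changes of -0.08 and -0.07.

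HMGCS1, the synthase that commits acetyl-CoA units to the pathway, was the exception among these steps. It was at 163, 159 and 147 CPM in si-NC and 160.0, 158 and 163 CPM in si-NORAD, and the groups overlapped. The fitted log2 fold change was 0.04 (95% interval -0.13 to 0.21).

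From farnesyl diphosphate to cholesterol, 8 of 11 genes had lower values in si-NORAD (median log2 fold change -0.18). EBP, the isomerase that moves the double bond of the sterol B ring, had the largest difference of the 18 sterol enzymes. EBP lies on chromosome X at 48521158 to 48528716 on the plus strand of GRCh38 and is annotated as protein-coding. It was at 56.6, 84.7 and 90.2 CPM in si-NC 4, 5 and 6, against 57.1, 59.8 and 55.7 CPM for si-NORAD. The control si-NC 4 lay inside the si-NORAD range, so the difference was that of si-NC 5 and 6 from the other 4 libraries. Group means were 77.2 ± 18.1 and 57.5 ± 2.07 CPM (SD, n = 3 each), with a log2 fold change of -0.42 (95% interval -0.77 to -0.08, edgeR adjusted p = 0.203). It was 0.02 against si-NC 4 alone and -0.61 against si-NC 5 and 6. EBP also fell in edgeR without the low-count filter (adjusted p = 0.00205), a fit that called 6.56% of all genes (3.57% lower and 3% higher).

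HSD17B7, the ketosteroid reductase of the C4 demethylation complex, was the 1 sterol enzyme whose groups did not overlap. HSD17B7 (chromosome 1, 162790702 to 162812817, plus strand, protein-coding) was at 18.9, 24.2 and 24.6 CPM in si-NC and 17.8, 18.8 and 18.2 CPM in si-NORAD. The gap between si-NC 4 and the nearest si-NORAD library was small beside that to si-NC 5 and 6. The log2 fold change was -0.31 (95% interval -0.57 to -0.05, adjusted p = 0.204), and it was -0.06 against si-NC 4 alone. HSD17B7 has 2 named pseudogenes, so part of its reads may be shared with copies. NSDHL, which acts in the same demethylation complex, was at 42.6, 56.2 and 57.7 CPM in si-NC and 43.6, 41.3 and 45.0 CPM in si-NORAD (log2 fold change -0.27, 95% interval -0.54 to -0.00, adjusted p = 0.229). Its si-NC 4 value lay within the si-NORAD range. MSMO1, the methyl oxidase that starts this demethylation, was at 72.3, 85.7 and 88.2 CPM in si-NC and 71.4, 70.9 and 75.9 CPM in si-NORAD (-0.18, SE 0.09, adjusted p = 0.289). For NSDHL, HSD17B7 and MSMO1, as for 9 of the 18 sterol enzymes and 28.0% of all genes tested, si-NC 5 and 6 were above the other 4 libraries.

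FDFT1, squalene synthase, which commits farnesyl diphosphate to sterols, was at 96.4, 114 and 125 CPM in si-NC and 97.2, 93.2 and 95.02 CPM in si-NORAD (log2 fold change -0.23, 95% interval -0.46 to -0.01, adjusted p = 0.225). Again si-NC 4 was inside the si-NORAD range, and against it alone the log2 fold change was -0.02. Without si-NC 4, FDFT1 (-0.33, adjusted p = 0.000879), MSMO1 (-0.26, 0.00411), NSDHL (-0.40, 0.000492), HSD17B7 (-0.42, 0.00134) and EBP (-0.61, 2.1e-05) fell, with 39.3% of all genes called. TM7SF2, a sterol C14 reductase, was set apart by 1 library: it was at 14.4, 15.4 and 23.8 CPM in si-NC 4, 5 and 6, against 15.5, 14.7 and 15.9 CPM for si-NORAD. Without si-NC 6 its log2 fold change turned from -0.22 to 0.04.

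Other enzymes of this stretch had fitted log2 fold changes from -0.09 to 0.08, with wide intervals for some. SQLE, the squalene epoxidase and an oxygen-dependent step, was at 108, 103 and 110 CPM in si-NC and 109, 100 and 118 CPM in si-NORAD (log2 fold change 0.03, 95% interval -0.16 to 0.22). DHCR7, which catalyses the last reduction to cholesterol, was at 88.9, 86.1 and 94.3 CPM in si-NC and 94.2, 84.6 and 96.1 CPM in si-NORAD (0.03, interval -0.15 to 0.21). For both genes the si-NC range lay inside the si-NORAD range. LSS, the cyclase that makes lanosterol, had a log2 fold change of -0.01 (interval -0.25 to 0.23) and SC5D, a C5 desaturase, one of -0.09 (interval -0.36 to 0.17). CYP51A1, lanosterol C14 demethylase, rested on 43 to 104 counts per library and had an interval from -0.42 to 0.59.

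ACACA, acetyl-CoA carboxylase, which makes malonyl-CoA and commits carbon to fatty acids, had the largest difference of the 7 fatty acid enzymes. ACACA (chromosome 17, 37084988 to 37406818, minus strand, protein-coding) was at 181, 148 and 119 CPM in si-NC 4, 5 and 6, against 205, 186 and 202 CPM for si-NORAD. All si-NORAD libraries were above all si-NC libraries, with a narrow gap to si-NC 4. Group means were 149 ± 31.3 and 198 ± 10.5 CPM (SD, n = 3 each), a fitted level 32.2% higher, with a log2 fold change of 0.40 (95% interval 0.09 to 0.71, edgeR adjusted p = 0.198). It was 0.13 against si-NC 4 alone and 0.56 against si-NC 5 and 6 (adjusted p = 0.000226), where 39.3% of all genes were called (19% higher). ACACA also rose in edgeR without the low-count filter (adjusted p = 0.00283), a fit that called 6.56% of all genes (3% higher). It did not pass in DESeq2 (adjusted p = 0.088) or in edgeR with the trend over gene length removed (0.20, adjusted p = 0.179).

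FASN, which builds palmitate from malonyl-CoA, was at 505, 411 and 377 CPM in si-NC 4, 5 and 6, against 525, 493 and 516 CPM for si-NORAD. The control si-NC 4 lay inside the si-NORAD range. The log2 fold change was 0.25 (95% interval -0.01 to 0.50, edgeR adjusted p = 0.240), and it was 0.02 against si-NC 4 alone. ACLY was at 698, 603 and 548.5 CPM in si-NC and 687, 654 and 705 CPM in si-NORAD (0.15, SE 0.10, adjusted p = 0.408). SCD was at 505, 446 and 422 CPM in si-NC and 521, 465 and 556 CPM in si-NORAD (0.17, SE 0.10, adjusted p = 0.346), and against si-NC 4 alone the value was 0.03. The controls si-NC 5 and 6 were below the other 4 libraries for ACLY, ACACA, FASN, SCD and FADS1. For all genes tested that share was 27.0%. These 5 genes rose without si-NC 4 (log2 fold changes 0.24, 0.56, 0.37, 0.24 and 0.25), with 39.3% of all genes called.

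The desaturases of polyunsaturated fatty acids, FADS1 (delta-5) and FADS2 (delta-6), are neighbours on chromosome 11, on opposite strands, and share 490 exon bases. FADS1 was at 281, 250 and 221 CPM in si-NC and 286, 269 and 286 CPM in si-NORAD. FADS2 was at 127, 133 and 160 CPM in si-NC and 152, 134 and 155 CPM in si-NORAD. The ratio of FADS2 to FADS1 by FPKM was 0.419, 0.495 and 0.673 in si-NC, against 0.494, 0.463 and 0.503 for si-NORAD. It varied more among the controls than between the groups, whose ranges overlapped. The log2 fold change of FADS2 was 0.21 against si-NC 4 alone, a single control library, and 0.00 against si-NC 5 and 6. All si-NORAD values of FADS2 lay within the si-NC range. ELOVL6, which elongates palmitate, was at 80.8, 77.7 and 75.2 CPM in si-NC and 76.1, 78.2 and 77.7 CPM in si-NORAD (-0.01, 95% interval -0.17 to 0.15).

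The regulators and the transport gene had log2 fold changes from -0.04 to 0.10 and adjusted p from 0.441 to 0.974 in edgeR. SREBF2, which encodes SREBP2, was at 131, 123 and 126 CPM in si-NC and 140, 131 and 135 CPM in si-NORAD (log2 fold change 0.10, 95% interval -0.07 to 0.26). SREBF1, which encodes SREBP1, was at 113, 118 and 135 CPM in si-NC and 123, 115 and 119 CPM in si-NORAD (-0.04, interval -0.23 to 0.16). Per length the 2 were at like levels, with a ratio of SREBF1 to SREBF2 from 0.812 in si-NC 4 to 1.007 in si-NC 6. In si-NORAD it lay between 0.823 and 0.833.

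INSIG1, which retains SREBPs and is itself an SREBP target, was at 34.1, 38.2 and 41.6 CPM in si-NC and 38.6, 34.6 and 41.4 CPM in si-NORAD (0.01, interval -0.23 to 0.24). SCAP, the escort, was at 73.8, 80.9 and 79.6 CPM in si-NC and 78.9, 73.6 and 75.6 CPM in si-NORAD (-0.04, interval -0.21 to 0.13). STARD4, a sterol carrier, was at 26.8, 27.1 and 25.8 CPM in si-NC and 27.6, 24.1 and 28.4 CPM in si-NORAD (0.01, interval -0.20 to 0.22). For these 3 genes the groups overlapped.

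The branches also differed in gene length, which moved with the difference among the controls. The lengths behind the FPKM values had a median of 4302 bases in the 18 sterol enzymes (1280 to 7238) and 9364 bases in the 7 fatty acid enzymes (5217 to 13008). Across the 30 genes, length had a Spearman rho of -0.61 with the mean of si-NC 5 and 6 minus si-NC 4, and of 0.57 with the fitted change in si-NORAD. Across all genes tested these were -0.41 (15512 genes with a count in every library) and 0.38. The points share the same 6 libraries, so these are descriptions. With the trend over length removed from each library, the sterol median was -0.14 and the fatty acid median 0.11, none of the 30 genes was called (5 of all genes, 0.0322%), and the all-gene median was -0.03. In that fit ACACA was at 0.20 and FASN at 0.11. Among the sterol enzymes EBP was at -0.32, NSDHL at -0.16, MSMO1 at -0.10, PMVK at -0.07 and LSS at -0.11, while IDI1 (-0.27), HSD17B7 (-0.32) and FDFT1 (-0.26) were within 0.03 of their values without it.

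**Figure D5:**
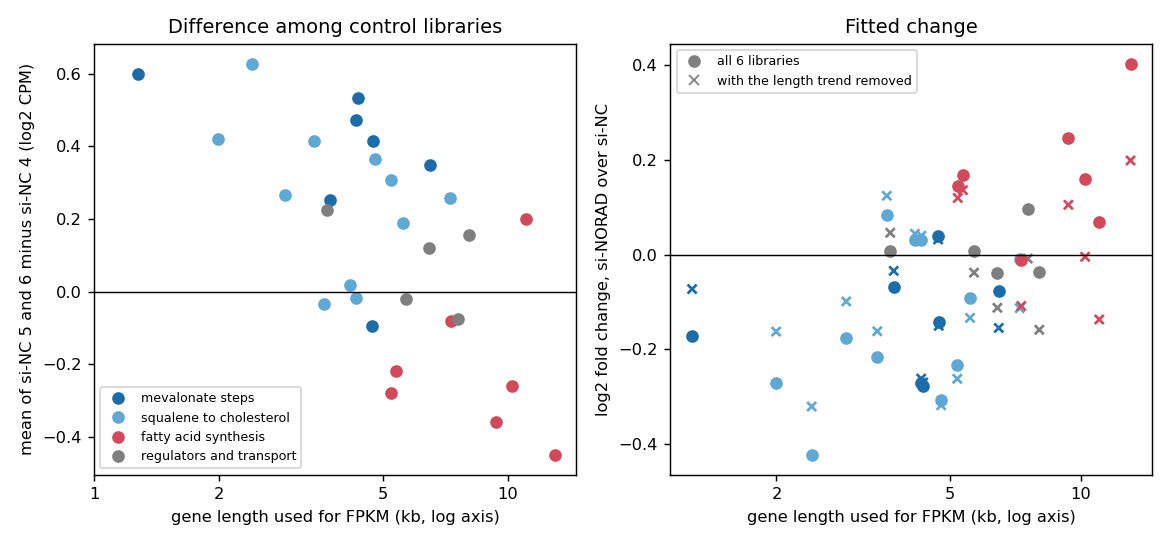
Gene length (kb, log axis) is set against the difference among controls (left: mean of si-NC 5 and 6 minus si-NC 4, log2 CPM) and against the fitted log2 fold change of si-NORAD over si-NC (right: circles with all 6 libraries, crosses with the length trend removed). ACACA, FASN, FADS1, ACLY and SCD, in red, lie below 0 on the left and above 0 on the right, with crosses closer to 0 than circles, whereas FADS2 lies above 0 on the left.

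Promoter sequences show which motif letters these genes carry near their starts, and a link to the differences above was not tested. RefSeq promoters (250 bases before to 50 after the start, GRCh38.p14) matched 26 of the 30 genes. A classical sterol regulatory element of 10 letters, those in capitals in the SREBF2 stretch, was searched on both strands and was in 1 of the 26, that of SREBF2 (0.0476% of all 27305 promoters). The looser TCACNCCAC, which overlaps all but the first letter of it, was in the same 1 (1.15% of all promoters). The E-box form ATCACGTGA was in 1, that of INSIG1 (0.264%). CCAAT, the box bound by NF-Y, a partner of SREBPs, was in 17 of 26 promoters (35.7% of all promoters). By role it was in 4 of 6 of the mevalonate steps and 8 of 9 from farnesyl diphosphate to cholesterol. It was in 2 of 6 fatty acid enzymes and 3 of 5 regulators or transport genes. GGGCGG, the box bound by Sp1, was in 24 of 26, against 44.6% of all promoters and 69.7% of promoters of genes tested. Among promoters of genes tested the other shares were 0.0558% for the 10 letters, 1% for TCACNCCAC, 0.455% for ATCACGTGA and 36.2% for CCAAT. The SREBF2 and INSIG1 stretches are shown because they hold the 2 SREBP motifs, in capitals (GRCh38.p14 chr22:41832941-41833010, plus strand, and chr7:155297792-155297860, plus strand, where the E-box is read on the other strand).

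SREBF2: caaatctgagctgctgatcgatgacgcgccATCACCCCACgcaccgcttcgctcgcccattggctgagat
INSIG1: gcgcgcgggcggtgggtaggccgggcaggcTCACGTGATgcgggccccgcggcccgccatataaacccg

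Promoters of 3 sterol enzymes with lower values (EBP, HSD17B7 and NSDHL) and of 2 fatty acid enzymes with higher values (ACACA and SCD) are shown in full, 5′ to 3′ on the strand of the gene, to set the branches side by side. Capitals mark CCAAT or its complement ATTGG and GGGCGG or its complement CCGCCC. They are chrX:48521558-48521857 (EBP), chr1:162790452-162790751 (HSD17B7), chrX:152830813-152831112 (NSDHL), chr17:37406787-37407086 (ACACA, minus strand) and chr10:100346983-100347282 (SCD).

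EBP: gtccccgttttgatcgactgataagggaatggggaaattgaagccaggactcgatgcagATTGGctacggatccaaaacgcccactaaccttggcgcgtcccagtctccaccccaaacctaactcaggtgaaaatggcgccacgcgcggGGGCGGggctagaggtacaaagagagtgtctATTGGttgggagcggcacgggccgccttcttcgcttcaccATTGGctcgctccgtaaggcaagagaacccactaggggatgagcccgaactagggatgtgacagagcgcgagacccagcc
HSD17B7: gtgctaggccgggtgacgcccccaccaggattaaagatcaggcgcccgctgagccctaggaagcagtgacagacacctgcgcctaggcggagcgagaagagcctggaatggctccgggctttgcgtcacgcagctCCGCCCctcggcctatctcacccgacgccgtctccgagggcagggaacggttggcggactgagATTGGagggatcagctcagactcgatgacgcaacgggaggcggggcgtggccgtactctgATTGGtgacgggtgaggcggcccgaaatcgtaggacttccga
NSDHL: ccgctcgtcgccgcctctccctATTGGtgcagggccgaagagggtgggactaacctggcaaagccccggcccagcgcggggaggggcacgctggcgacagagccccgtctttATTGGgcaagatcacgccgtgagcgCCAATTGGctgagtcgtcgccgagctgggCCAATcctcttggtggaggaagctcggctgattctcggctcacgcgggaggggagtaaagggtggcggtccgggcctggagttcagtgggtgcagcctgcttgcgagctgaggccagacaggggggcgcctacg
ACACA: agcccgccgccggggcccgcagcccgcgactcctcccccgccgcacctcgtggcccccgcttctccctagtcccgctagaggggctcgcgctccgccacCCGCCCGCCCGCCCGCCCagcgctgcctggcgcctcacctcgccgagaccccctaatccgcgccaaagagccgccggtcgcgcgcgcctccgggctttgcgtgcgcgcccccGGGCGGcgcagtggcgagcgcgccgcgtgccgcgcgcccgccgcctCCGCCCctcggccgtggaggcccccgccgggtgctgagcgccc
SCD: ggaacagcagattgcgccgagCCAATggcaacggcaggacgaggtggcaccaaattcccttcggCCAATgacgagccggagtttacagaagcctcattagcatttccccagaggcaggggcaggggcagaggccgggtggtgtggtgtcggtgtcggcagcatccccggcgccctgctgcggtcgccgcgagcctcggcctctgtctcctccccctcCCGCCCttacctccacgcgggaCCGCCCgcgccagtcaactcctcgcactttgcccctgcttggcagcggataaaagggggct

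The CCAAT box and its complement occurred 3 times in the EBP promoter, 2 times in that of HSD17B7 and 5 times in that of NSDHL. In the ACACA promoter there were none and 6 GGGCGG boxes, some overlapping, and the SCD promoter held 2 of each. A match describes the letters of these windows, and a window without one says nothing about binding.

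Other genes of these pathways were taken from 3 lists, and none of their members passed in edgeR with all 6 libraries and the low-count filter. Without that filter 3 passed, in a fit that called 6.56% of all genes (3% higher and 3.57% lower). ABCA1, a cholesterol exporter, rose (0.32, edgeR adjusted p = 0.0431). ECI1 and ECI2, isomerases of fatty acid oxidation, fell (-0.36, adjusted p = 0.01075, and -0.43, adjusted p = 0.0251). The ABCA1 value turned with the control: it was -0.09 against si-NC 4 alone and 0.58 against si-NC 5 and 6. For ECI1 and ECI2, si-NC 4 lay within the si-NORAD range. Those 3 were named after their values were seen. Of 24 tested genes that supply or regulate the same pathways, 10 had higher and 14 lower values (median log2 fold change -0.03). The 2 with the highest FPKM, ELOVL5 and HACD3, which act in fatty acid elongation, had log2 fold changes of -0.03 and 0.02. Of 13 genes of cholesterol export, storage and trafficking, 6 had higher and 7 lower values (median -0.05). GRAMD1A, a sterol transfer protein of the endoplasmic reticulum, was at 217, 214 and 230 CPM in si-NC and 202, 184 and 198 CPM in si-NORAD. Its groups did not overlap, as for 12.7% of all genes tested with lower values (log2 fold change -0.18, adjusted p = 0.226 in edgeR). The GRAMD1A value was -0.16 against si-NC 4 alone and -0.19 against si-NC 5 and 6 (edgeR adjusted p = 0.0222). The latter fit called 39.3% of all genes (20.3% lower), and both fits use the same si-NORAD libraries. LIPA, the lysosomal lipase that frees cholesterol from its esters, had -0.05.

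Of 14 genes of fatty acid oxidation, the breakdown of fatty acids in mitochondria and peroxisomes, 13 had lower values in si-NORAD (median -0.19, against 0.01 for all genes). In 12 of the 14, si-NC 5 and 6 were both above the other 4 libraries (28.0% of all genes). ECHS1, the mitochondrial enoyl-CoA hydratase, was at 152, 211 and 242 CPM in si-NC and 169, 164 and 165 CPM in si-NORAD (log2 fold change -0.28, edgeR adjusted p = 0.282). It was 0.13 against si-NC 4 alone and -0.45 against si-NC 5 and 6 (adjusted p = 0.000123), where 39.3% of all genes were called (20.3% lower). ACADVL, which starts the oxidation of long chains, was at 371, 402 and 477 CPM in si-NC and 380, 392 and 395 CPM in si-NORAD (-0.10, adjusted p = 0.569). The ACADVL value was 0.07 against si-NC 4 alone and -0.18 against si-NC 5 and 6 (adjusted p = 0.048, in the same fit). For both genes si-NC 4 was below all si-NORAD libraries. Over these 14 genes the median si-NORAD value minus si-NC 4 was -0.02, and minus the mean of si-NC 5 and 6 it was -0.25.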

How the data were processed

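The submitters' processing notes name GRCh38 and the tools HISAT2, HTSeq 0.6.1 and FastQC. The deposited table holds unnormalized read counts per gene and FPKM, both computed by the authors. Count over FPKM gave 1 length per gene in 100% of values within 0.1%, and these lengths were used here. Columns were matched to samples by title (0 columns of other samples). Counts went into edgeR 4.0.16 (R 4.3.3): filterByExpr, TMM scaling, robust dispersions and the quasi-likelihood F test of si-NORAD against si-NC, two-sided, with no covariate. A gene was called when its p, adjusted by Benjamini-Hochberg across 15515 genes, was under 0.05. Intervals are 95%. On simulated data in this comparison (15293 genes) 60% of 1.5-fold and 83% of 2-fold differences were recovered, with 4 false calls. The simulated libraries lacked the split of si-NC 5 and 6 from the others, so these shares do not give the sensitivity in the real libraries. DESeq2 was 1.42.0. Annotation was GENCODE 29, and promoters came from RefSeq (in 23 of 26 the first transcribed bases were found in a GENCODE transcript). Alternatives were RLE scaling, no low-count filter, DESeq2, the replicate number as a block, removal of the length trend (loess, span 0.3), si-NC 5 and 6 left out, and each library left out. The genes, lists and tests were chosen with earlier results of these data known. The text names all 30 genes, NORAD and, from each other list, called genes or the 2 with the highest FPKM, plus markers. Python 3.11.15, pandas 2.3.3 and matplotlib 3.10.9 made summaries and figures. The summed level of the retina marker list is not reported here.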

Additional observations from a re-analysis of the deposited data

How the results depend on the processing

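RLE scaling, DESeq2, the replicate block and no low-count filter kept the direction of all 30 genes, and none of the 30 was called in the former 3. No low-count filter called 2 of the 30 (1935 of all genes), the fit with si-NC 5 and 6 left out 2 (499 of all genes), DESeq2 382 of all genes, and removal of the length trend 5. Leaving out 1 library in turn gave 0 to 14 of the 30 genes and 0 to 6251 of all genes, the highest without si-NC 4. The difference between the branch medians (log2, sterol minus fatty acid) was -0.32, -0.51 to -0.13 with 1 library left out, and 0.035 with si-NC 5 and 6 left out. The sterol median ran from -0.26 to -0.021 (without si-NC 6) with 1 library left out and was 0.054 with si-NC 5 and 6 left out. The fatty acid median ran from 0.11 to 0.24 and was 0.019 there.

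With si-NC 5 and 6 left out, log2 fold changes turned to 0.0625 for ACAT2, -0.022 for HMGCS1, 0.17 for MVK, 0.25 for PMVK, 0.16 for MVD, 0.10 for IDI1, 0.10 for FDPS, 0.17 for LSS, 0.10 for TM7SF2, 0.0048 for MSMO1, 0.0225 for NSDHL, 0.0245 for EBP, 0.034 for SC5D, -0.034 for ACLY, -0.0062 for FADS1, 0.074 for SREBF1, 0.046 for SCAP and -0.0039 for STARD4. With the length trend removed they turned to -0.0046 for FADS1, -0.14 for FADS2, -0.0085 for SREBF2 and -0.038 for STARD4. With 1 library left out, 12 genes turned in at least 1 fit: HMGCS1 (-0.0050 to 0.0692), MVK (-0.18 to 0.0624), MVD (-0.27 to 0.0295), SQLE (-0.0294 to 0.0885), LSS (-0.0938 to 0.10), CYP51A1 (-0.0923 to 0.29), TM7SF2 (-0.35 to 0.0415), DHCR7 (-0.0057 to 0.0831), ELOVL6 (-0.0376 to 0.0140), SREBF1 (-0.0877 to 0.0419), INSIG1 (-0.0655 to 0.0760) and STARD4 (-0.0384 to 0.0730). FDFT1, HSD17B7, ACACA, FASN and SCD kept their sign in all 12 fits, but with si-NC 5 and 6 left out they were at -0.018, -0.055, 0.126, 0.019 and 0.026, none called. The cause of these changes was not tested.

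Same-numbered libraries did not deviate together (correlations over genes of -0.03, -0.02 and -0.07), so the numbers were not taken as pairs. With the replicate block edgeR called 2 genes in all and 0 of the 30, and the branch difference was -0.30. CYP51A1 had 43 to 104 counts per library and an SE of 0.22, the largest of the 30.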
